A study of Mus musculus with 18 samples.

Results

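The antiviral interferon-stimulated genes described here are 35 named mouse genes that cells switch on in response to interferon and that sense, cut, edit, trap or tag viral material. They were chosen by symbol in a deposited table of 46983 genes, and all 35 were found. Their RNA was measured in 18 libraries of CD8 T cells in a study that compared the naive and memory-phenotype compartments of mice lacking normal Dock2, a protein that switches on Rac and so links receptors of blood cells to actin and migration. Memory-phenotype cells (CD44hi) and naive cells (CD44lo) of Dock2-deficient mice, labelled Dock2-Hsd/Hsd (Dock2-/-), gave 5 libraries each, and the same sorts from wild-type mice gave 4 libraries each. The strain field reads C57BL/6J for every library, whereas the sample descriptions of the Dock2-deficient libraries carry the name C57L6NHsd, so genotype and substrain cannot be told apart. No treatment or infection is labelled. Ages are not given in the sources used here, and neither is whether each replicate came from its own animal. The p-values therefore speak only of scatter among the libraries, which may be partly technical.

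Type I interferons bind a receptor of the chains IFNAR1 and IFNAR2, whose kinases JAK1 and TYK2 activate STAT2. A complex of STAT2 and IRF9 binds a DNA motif known as the interferon-stimulated response element, and most of the genes here are targets of that complex. Interferon gamma acts through IFNGR1 and IFNGR2, uses a motif known as the gamma-activated sequence and induces IRF1. T cells carry both receptors and keep a low level of these genes without infection, and memory T cells are themselves a source of interferon gamma.

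Promoter sequences from RefSeq (GRCm38.p6; 250 bases before to 50 bases after a start site) were matched by symbol for 27 of the 35 genes, as 40 windows. Zbp1, Rtp4, Usp18, Dhx58, Oas2, Parp9, Mx1 and Parp14 had no entry. The interferon-stimulated response element was searched as GAAA, any 2 bases and GAAA, or on the other strand TTTC, any 2 bases and TTTC. The gamma-activated sequence was searched as TTC, any 3 bases and GAA, which reads the same on both strands. The response element was found in 12 of the 27 genes (44.4%), against 1079 of 27025 genes with a promoter entry (3.99%), and in 13 of the 40 windows, against 3.44% of all windows. The genes with it were Bst2, Eif2ak2, Ifih1, Ifit1, Ifit3, Isg15, Oas1a, Oas3, Rsad2, Shisa5, Stat2 and Trim30a. The gamma-activated sequence was found in 10 of the 27 (37.0%), against 9.55% of genes and 8.30% of windows, namely in Adar, Bst2, Eif2ak2, Ifi35, Ifit2, Irf1, Isg20, Oas1a, Samhd1 and Shisa5. Both motifs occurred in 4 genes, and matches of one overlapped matches of the other in the windows of Bst2 and Shisa5. A match describes letters in a window and is not a bound site. The 4 windows printed here show the motif at different places, with the matched letters in capitals, each read 5′ to 3′ on the gene's strand. Isg15 holds 3 overlapping response elements between 78 and 57 bases before the start (chr4:156200769-156201068, minus strand). Stat2 holds 1 response element 222 to 213 bases before the start (chr10:128270248-128270547, plus strand). Irf1 holds 1 gamma-activated sequence 90 to 82 bases before the start (chr11:53769764-53770063, plus strand). Shisa5, the most abundant gene of the group, holds 1 response element at bases 32 to 41 after a start site that lies inside the gene (chr9:109054616-109054915, plus strand).
Isg15: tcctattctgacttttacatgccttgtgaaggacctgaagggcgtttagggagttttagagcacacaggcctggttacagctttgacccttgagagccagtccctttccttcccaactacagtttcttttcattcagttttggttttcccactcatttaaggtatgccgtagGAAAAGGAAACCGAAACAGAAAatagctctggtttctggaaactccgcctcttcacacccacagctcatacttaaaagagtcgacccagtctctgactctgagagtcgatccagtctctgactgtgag
Stat2: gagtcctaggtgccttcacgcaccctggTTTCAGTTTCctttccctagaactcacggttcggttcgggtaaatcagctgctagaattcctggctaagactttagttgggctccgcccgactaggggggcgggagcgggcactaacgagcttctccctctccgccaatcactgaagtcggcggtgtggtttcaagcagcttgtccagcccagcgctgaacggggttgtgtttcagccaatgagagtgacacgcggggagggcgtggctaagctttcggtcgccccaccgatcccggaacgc
Irf1: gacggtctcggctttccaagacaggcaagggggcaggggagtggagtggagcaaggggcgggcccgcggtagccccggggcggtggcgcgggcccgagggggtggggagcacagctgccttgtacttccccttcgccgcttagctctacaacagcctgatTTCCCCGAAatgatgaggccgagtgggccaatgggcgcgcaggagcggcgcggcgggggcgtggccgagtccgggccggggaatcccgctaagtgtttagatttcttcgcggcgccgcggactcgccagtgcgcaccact
Shisa5: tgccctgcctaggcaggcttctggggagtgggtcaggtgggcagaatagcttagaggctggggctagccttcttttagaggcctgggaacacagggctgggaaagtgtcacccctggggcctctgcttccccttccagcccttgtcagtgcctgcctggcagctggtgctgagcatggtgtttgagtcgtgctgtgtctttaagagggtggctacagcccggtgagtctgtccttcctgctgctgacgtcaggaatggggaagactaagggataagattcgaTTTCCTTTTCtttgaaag

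Depth was 2215987 to 8257768 expected reads per library, of which the ribosomal RNA gene Rn18s-rs5 took 37.0% to 69.4%. The labelled cells carried their markers, although memory markers were not equal between the naive groups. The 6 memory-sort markers summed to 5263 to 9232 in Dock2-deficient memory and 5708 to 7046 in wild-type memory libraries. In naive libraries they summed to 450 to 1018 in Dock2-deficient and 281 to 464 in wild-type mice. Of the 6, 3 were called higher in Dock2-deficient than wild-type naive cells (limma, lowest adjusted p = 6.5e-04). Their part in these results was not tested. Cd8a was at 612 to 1583 in every library, and Cd44, the sorting gene, was at 172 to 222 in Dock2-deficient memory libraries, against 0 to 21.7 in Dock2-deficient naive libraries, and at 124 to 220.4 in wild-type memory libraries, against 3.39 to 9.78 in wild-type naive libraries. Markers of CD4 and regulatory T cells summed to at most 28.0 in any library. Dock2 RNA was present in every library, at 61.0 to 279.6 in Dock2-deficient memory libraries, against 399.7 to 844 in wild-type memory libraries, and at 171 to 373 in Dock2-deficient naive libraries, against 288 to 514 in wild-type naive libraries. Xist, which marks female mice, exceeded 100 in replicate 1 of each Dock2-deficient group and in all 8 wild-type libraries, so that 4 of 5 Dock2-deficient libraries of each sort were male and genotype largely went with sex. Library 4 of the wild-type memory group and library 5 of the Dock2-deficient memory group stood apart from the others in earlier work on these data, and values without them are given beside the results of memory cells that they moved.

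Values are normalized expected counts, which are reads per gene estimated by RSEM and scaled between libraries by the authors. To compare genes, the mean over the 18 libraries was divided by the length of the gene's exons. On this scale the group spanned more than 3 orders of magnitude. Shisa5, which encodes an endoplasmic reticulum protein linked to apoptosis, averaged 589 per kilobase. The nuclear body gene Sp100 averaged 96.3 and the transcription factor Irf1 67.1. Ifi35 (56.1), the virus-tethering gene Bst2 (54.9) and Trim30a (35.2) followed. The ranges of neighbours from Sp100 down overlapped over the 18 libraries, so their order is not firm, whereas the lowest Shisa5 value lay above the highest of every other gene. By normalized expected count, 4 strongly inducible genes were near 0. Isg15, the ubiquitin-like tag, ranged from 0 to 7.87 normalized expected counts and was above 0 in 15 libraries. Rsad2, which encodes viperin, ranged from 0 to 18.9 (above 0 in 16 libraries), Parp12 from 0 to 7.47 (11 libraries) and Ifi44 from 0 to 5.42 (8 libraries). These 4 had values of at least 10 in fewer than 4 libraries and were not tested, which left 31 genes tested among 9437 in all.

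**Figure D1:**
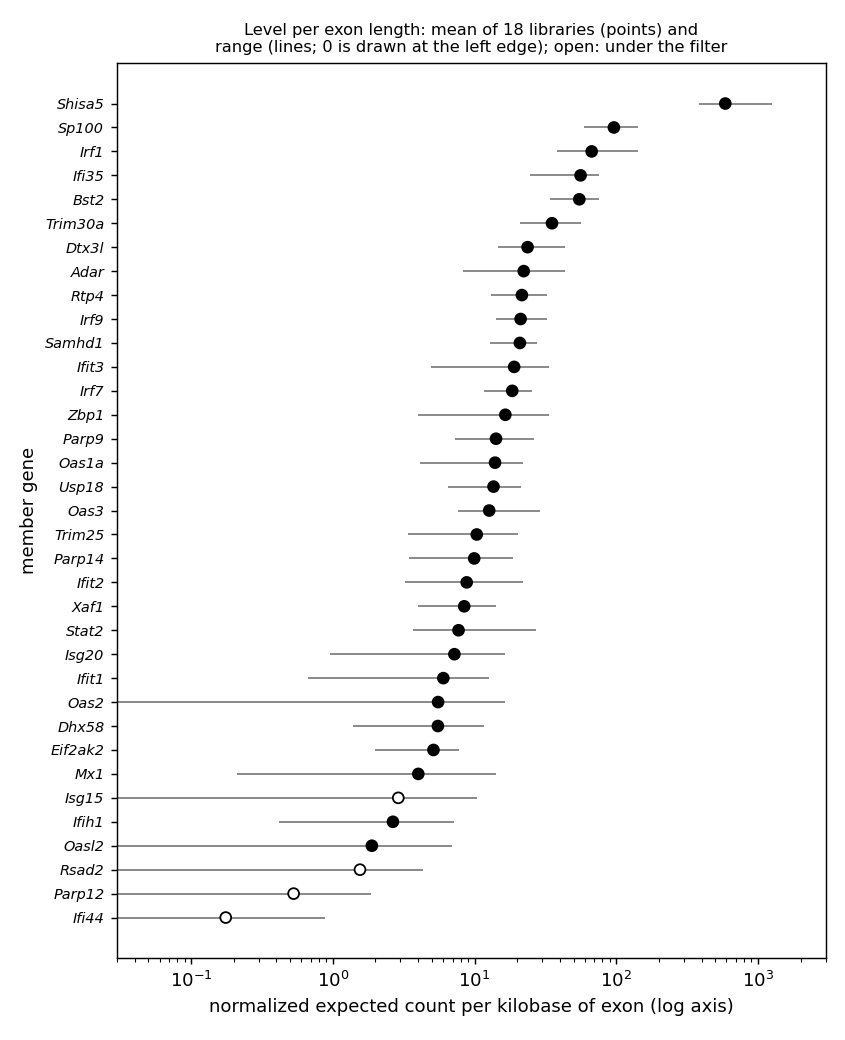
Level of each of the 35 genes, in order, as normalized expected count per kilobase of exon on a log axis; points are means of 18 libraries and lines run from the lowest to the highest library. Shisa5 (589) lies apart at the top, and the open symbols mark Isg15, Rsad2, Parp12 and Ifi44, which were under the filter. Per kilobase, Isg15 (2.90) lies above the tested genes Oasl2 (1.89) and Ifih1 (2.66).

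Averaged over the 31 tested genes, the difference between groups was largest between the 2 memory groups. Each gene's log2(value + 1) was set against its own mean over the libraries, and these deviations were averaged. The averages were -0.39, 0.10, -0.03, -0.07 and -0.29 in Dock2-deficient memory libraries 1 to 5. In wild-type memory libraries 1 to 4 they were 0.36, 0.22, 0.12 and 0.27. By this average, Dock2-deficient memory libraries lay below wild-type memory libraries without overlap, with means of -0.14 ± 0.20 (SD, n = 5) and 0.24 ± 0.10 (SD, n = 4). The gap was narrow, and the medians over the 31 genes overlapped. They were 0.12 and 0.09 in Dock2-deficient memory libraries 2 and 3, against 0.06 in wild-type memory library 3. Naive libraries averaged -0.09 ± 0.08 in Dock2-deficient cells (SD, n = 5; -0.19 to 0.03) and 0.04 ± 0.11 in wild-type cells (SD, n = 4; -0.09 to 0.17), with overlapping ranges. By role, the 11 tested RNA-directed and nucleotide enzymes averaged -0.34 ± 0.34 in Dock2-deficient memory and 0.41 ± 0.16 in wild-type memory libraries (SD, n = 5 and 4). In naive libraries they averaged -0.24 ± 0.21 in Dock2-deficient and 0.30 ± 0.32 in wild-type cells, so their difference was not confined to memory cells. The 4 genes of induction and signalling averaged 0.02 ± 0.21 and -0.06 ± 0.22 in the same memory groups (SD, n = 5 and 4). Within groups, single pairs of genes had correlations of deviations from the group mean between -0.80 (Irf1 and Adar) and 0.82 (Irf1 and Shisa5), and the median over the 465 pairs was 0.02, against -0.00072 over all pairs of tested genes. These correlations describe 18 libraries, and genes of a library share its depth and scaling.

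**Figure D2:**
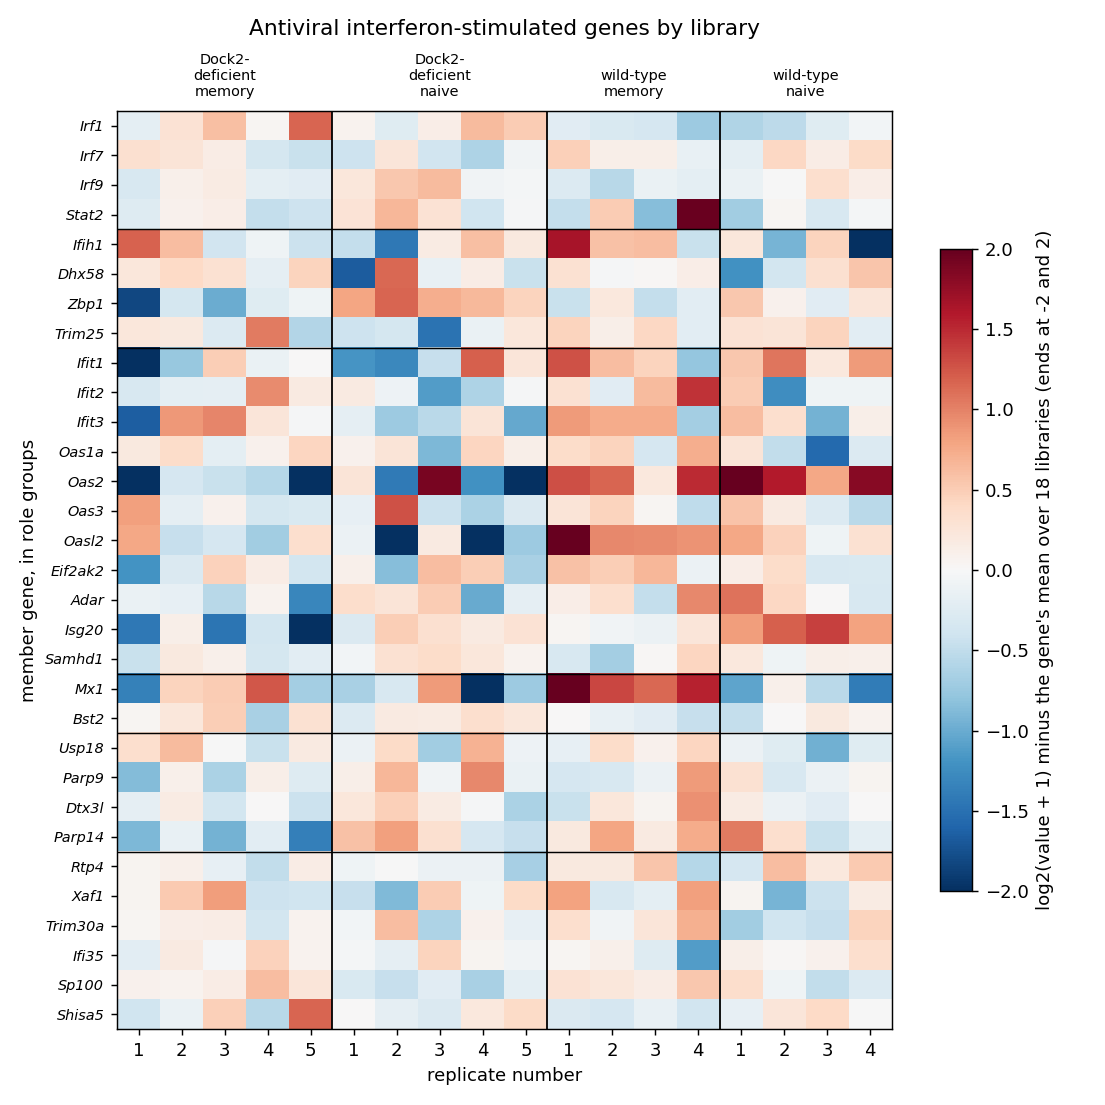
Deviation of each tested gene from its own mean, in log2 units, in each of the 18 libraries, ordered by group and replicate and, down the page, by role. Oas2 and Oasl2 are mostly blue in both Dock2-deficient groups, Mx1 is red in all 4 wild-type memory libraries, and Zbp1 is blue in Dock2-deficient memory and red in Dock2-deficient naive libraries.

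**Figure D3:**
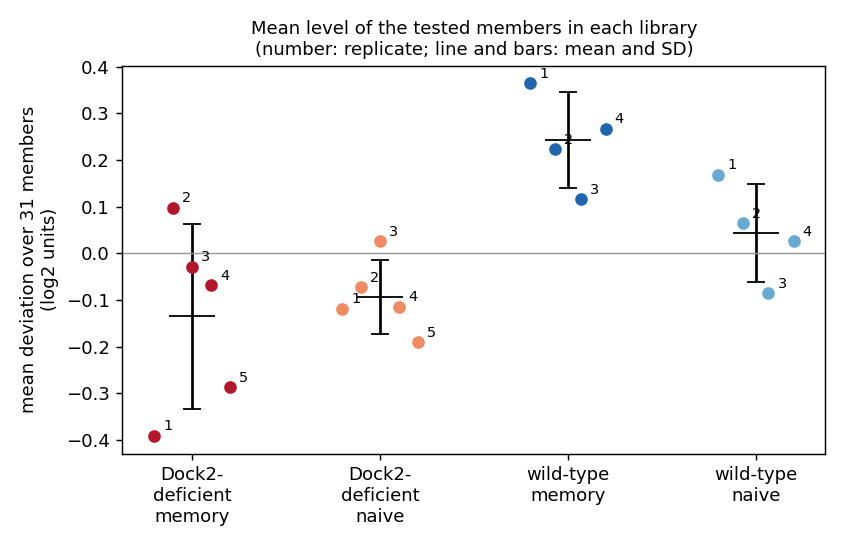
Mean deviation of the 31 tested genes in each library, in log2 units, with the replicate number beside each point and group means with SD as lines. Dock2-deficient memory libraries reach at most 0.10 and wild-type memory libraries start at 0.12, a narrow gap that medians over the genes do not show, while the naive groups overlap.

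In Dock2-deficient mice, memory cells held less Zbp1 RNA than naive cells, and no other tested member passed the test. Zbp1, a sensor of Z-form nucleic acids that can trigger inflammatory cell death, was at 14.2, 40.8, 25.8, 44.3 and 49.5 in the memory libraries, against 91.8, 119, 87.6, 82.6 and 71.7 in the naive libraries. Every memory library lay below every naive library. The log2 fold change was -1.45 ± 0.29 (SE; limma, Benjamini-Hochberg adjusted p = 0.00427), and in bulk RNA fewer cells with the transcript and less of it per cell cannot be told apart. The call was kept in all 18 refits with 1 library removed, with adjusted p up to 0.0169, and in the 9 other settings, with adjusted p up to 0.0221. It made 1 of 31 members called (3.23%), against 266 of 9437 genes (2.82%). At an unadjusted p under 0.05 there were 5 of 31 (16.1%), against 13.4% of all genes, and 2 of 31 (6.45%) had groups that did not overlap, against 3.93%. These shares are near those of all genes. The median log2 fold change of the 31 was 0.07, with 18 positive and 13 negative, and that of all genes -0.01. Scaling to library totals without Rn18s-rs5 moved the median of all genes to -0.32 and that of the members to -0.25, leaving them 0.06 above all genes, where the deposited scaling left them 0.08 above.

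Among the other members in that comparison, Sp100, a component of nuclear bodies that restrict DNA viruses, had groups that did not overlap: 754, 743, 782, 1081 and 841 in Dock2-deficient memory libraries, against 570.5, 514, 601, 449.6 and 617 in Dock2-deficient naive libraries. Its log2 fold change of 0.60 ± 0.18 missed the threshold (limma, adjusted p = 0.0821). Isg20, an exonuclease that degrades RNA, was at 3.55, 12.3, 3.44, 8.51 and 1.77 in memory libraries, against 9.09, 16.3, 14.3, 12.8 and 13.9 in naive libraries. The groups overlapped through memory library 2, and the difference of -1.26 ± 0.39 did not pass (adjusted p = 0.105). Oasl2, of the oligoadenylate synthetase family, was at 15.98, 6.17, 6.87, 5.11 and 11.5 in memory libraries, against 8.18, 0, 10.2, 1.31 and 4.98 in naive libraries, which overlapped (limma, 1.14 ± 0.56, adjusted p = 0.393). Parp14 and Parp9, which transfer ADP-ribose to proteins, had log2 fold changes of -0.90 (adjusted p = 0.172, limma) and -0.62 (adjusted p = 0.345). The 95% interval lay within a 2-fold change either way for 16 of the 31 genes, and it reached a median of 0.65 to either side. Among these were Irf7, Irf9, Oas1a, Oas3, Eif2ak2, Samhd1 and Bst2. Under the deposited scaling, larger changes of these lay outside the gene's own interval, while smaller ones did not. The intervals are not adjusted for the number of genes, and they rest on scatter that may be partly technical. The intervals leave out the choice of scaling, and scaling to totals without Rn18s-rs5 moved the median of all genes from -0.01 to -0.32. The direction of 10 of the 31 members in this comparison depended on the scaling. These were Ifi35, Irf1, Irf7, Oas1a, Oas3, Rtp4, Shisa5, Trim30a, Usp18 and Xaf1. After scaling to totals without Rn18s-rs5, 8 estimates were positive and 23 negative. Shisa5, the most abundant gene of the group, was among those that changed direction. Its log2 fold change was 0.09 (adjusted p = 0.929) as deposited, -0.24 (adjusted p = 0.487) after scaling to totals without Rn18s-rs5 and -0.49 after quantile normalization, where limma called it (adjusted p = 0.0121). Its values were 1413, 1693, 2587, 1262 and 4179 in Dock2-deficient memory libraries, against 1859, 1629.9, 1519, 2158 and 2432 in Dock2-deficient naive libraries, with memory library 5 highest, and without the 2 libraries that stood apart the difference was -0.18 (adjusted p = 0.827).

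Markers of other cell types differed between the sorts, and their part in these results was not tested. The 6 markers of NK and innate lymphocytes summed to 84.2 to 108.5 in Dock2-deficient memory libraries, against 5.46 to 71.3 in Dock2-deficient naive libraries, and to 121 to 172 in wild-type memory libraries, against 6.99 to 16.3 in wild-type naive libraries. The 8 markers of gamma delta and NKT cells summed to 88.5 to 142 in Dock2-deficient memory libraries, against 46.1 to 100.3 in Dock2-deficient naive libraries, and to 98.2 to 177 in wild-type memory libraries, against 5.18 to 11.3 in wild-type naive libraries. No marker of either list was at 0 in every library. Of the 3 tested NK markers, 2 passed in Dock2-deficient and 3 in wild-type mice, all higher in memory cells. Of the 4 tested gamma delta and NKT markers, all passed as higher in wild-type memory cells, whereas in Dock2-deficient mice Cd163l1 passed as higher (3.16, adjusted p = 2.2e-06, limma) and Trdc as lower (-1.52, adjusted p = 0.0146), with a median of -0.81 over the 4.

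Beside Bst2, which is a member, 7 markers of plasmacytoid and dendritic cells summed to 17.8 to 78.2 in Dock2-deficient memory libraries, against 207 to 424 in Dock2-deficient naive libraries, and to 0.874 to 21.9 in wild-type memory libraries, against 279 to 484 in wild-type naive libraries. Ccr9, which is also a gene of the naive sort, made up most of the naive sums, at up to 479.9, whereas Siglech reached at most 0.851. Itgax passed as higher in Dock2-deficient memory than naive cells (3.84, adjusted p = 0.00336, limma). The 5 B cell markers summed to 496 to 863 in Dock2-deficient memory, 446 to 1126 in Dock2-deficient naive, 370 to 638 in wild-type memory and 472 to 703 in wild-type naive libraries. Ighm (323 to 1070.0) and Cd79b (21.3 to 53.1) held nearly all of it, while Ms4a1, Cd79a and Pax5 reached at most 4.76. The 8 myeloid markers summed to 4.06 to 52.3, with Adgre1 at 0 in every library.

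In wild-type mice, no tested member passed the test between memory and naive cells, and the member farthest from 0 was Mx1. Mx1 is the gene of a dynamin-like GTPase that, where functional, traps viral nucleocapsids, and only its RNA was measured here. It was at 53.6, 28.2, 24.5 and 32.8 in memory libraries, against 4.598, 11.4, 6.99 and 3.38 in naive libraries. The groups did not overlap, and the log2 fold change of 2.29 ± 0.64 missed the threshold (limma, adjusted p = 0.0652). It passed with a pseudocount of 5 (adjusted p = 0.0226), after quantile normalization (0.0356) and when fitted on the 8 wild-type libraries alone (0.0247). It did not pass with a pseudocount of 0.5 (0.0860), with a term for sex (0.0647), after scaling to totals without Rn18s-rs5 (0.104), without the 2 libraries that stood apart (0.121), with a replicate block (0.130) or without the filter (0.149). With 1 library removed it passed in 3 of 18 refits, and adjusted p reached 0.182. In Dock2-deficient mice Mx1 was at 3.55, 14.8, 15.5, 26.4 and 6.19 in memory libraries, against 6.37, 8.27, 19.9, 0.802 and 5.97 in naive libraries, which overlapped (0.74 ± 0.57, adjusted p = 0.624, limma). The difference between the mice, -1.54 ± 0.86, was not called either (adjusted p = 0.819). With 0 of 31 members called, against 2.52% of all genes, 5 had an unadjusted p under 0.05 (16.1%, against 12.1%) and 4 had groups that did not overlap (12.9%, against 8.27%).

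The other 3 non-overlapping members in wild-type mice were Irf9, Isg20 and Oasl2. Irf9, the DNA-binding partner of STAT2, was at 92.0, 75.9, 102 and 97.1 in memory libraries, against 102, 111, 141 and 122 in naive libraries, the highest memory value lying just under the lowest naive value (-0.37 ± 0.21, adjusted p = 0.526, limma). Isg20 was at 11.6, 10.7, 10.3 and 13.6 in memory libraries, against 20.9, 27.1, 30.7 and 20.3 in naive libraries (-1.03 ± 0.44, adjusted p = 0.331, limma). Its estimates were thus below 0 in both genotypes. Oasl2 was at 44.0, 18.3, 18.05 and 17.5 in memory libraries, against 15.97, 12.7, 8.38 and 11.3 in naive libraries, with memory library 1 far above the other 3 (0.88 ± 0.63, adjusted p = 0.657, limma). Ifih1, which encodes the double-stranded RNA sensor MDA5, was at 58.9, 27.7, 28.4 and 13.1 in memory libraries, against 21.5, 9.04, 25.2 and 3.39 in naive libraries. These overlapped, and the difference was 1.20 ± 0.57 (adjusted p = 0.413, limma), or 0.68 without wild-type naive library 4. Zbp1 was at 38.1, 61.1, 37.4 and 45.5 in memory libraries, against 76.5, 56.1, 44.7 and 62.1 in naive libraries, overlapping and not called (-0.39 ± 0.32, adjusted p = 0.716, limma). The median log2 fold change of the 31 was 0.08 (17 positive, 14 negative), that of all genes was -0.02, and the 95% interval lay within a 2-fold change for 13 members.

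**Figure D4:**
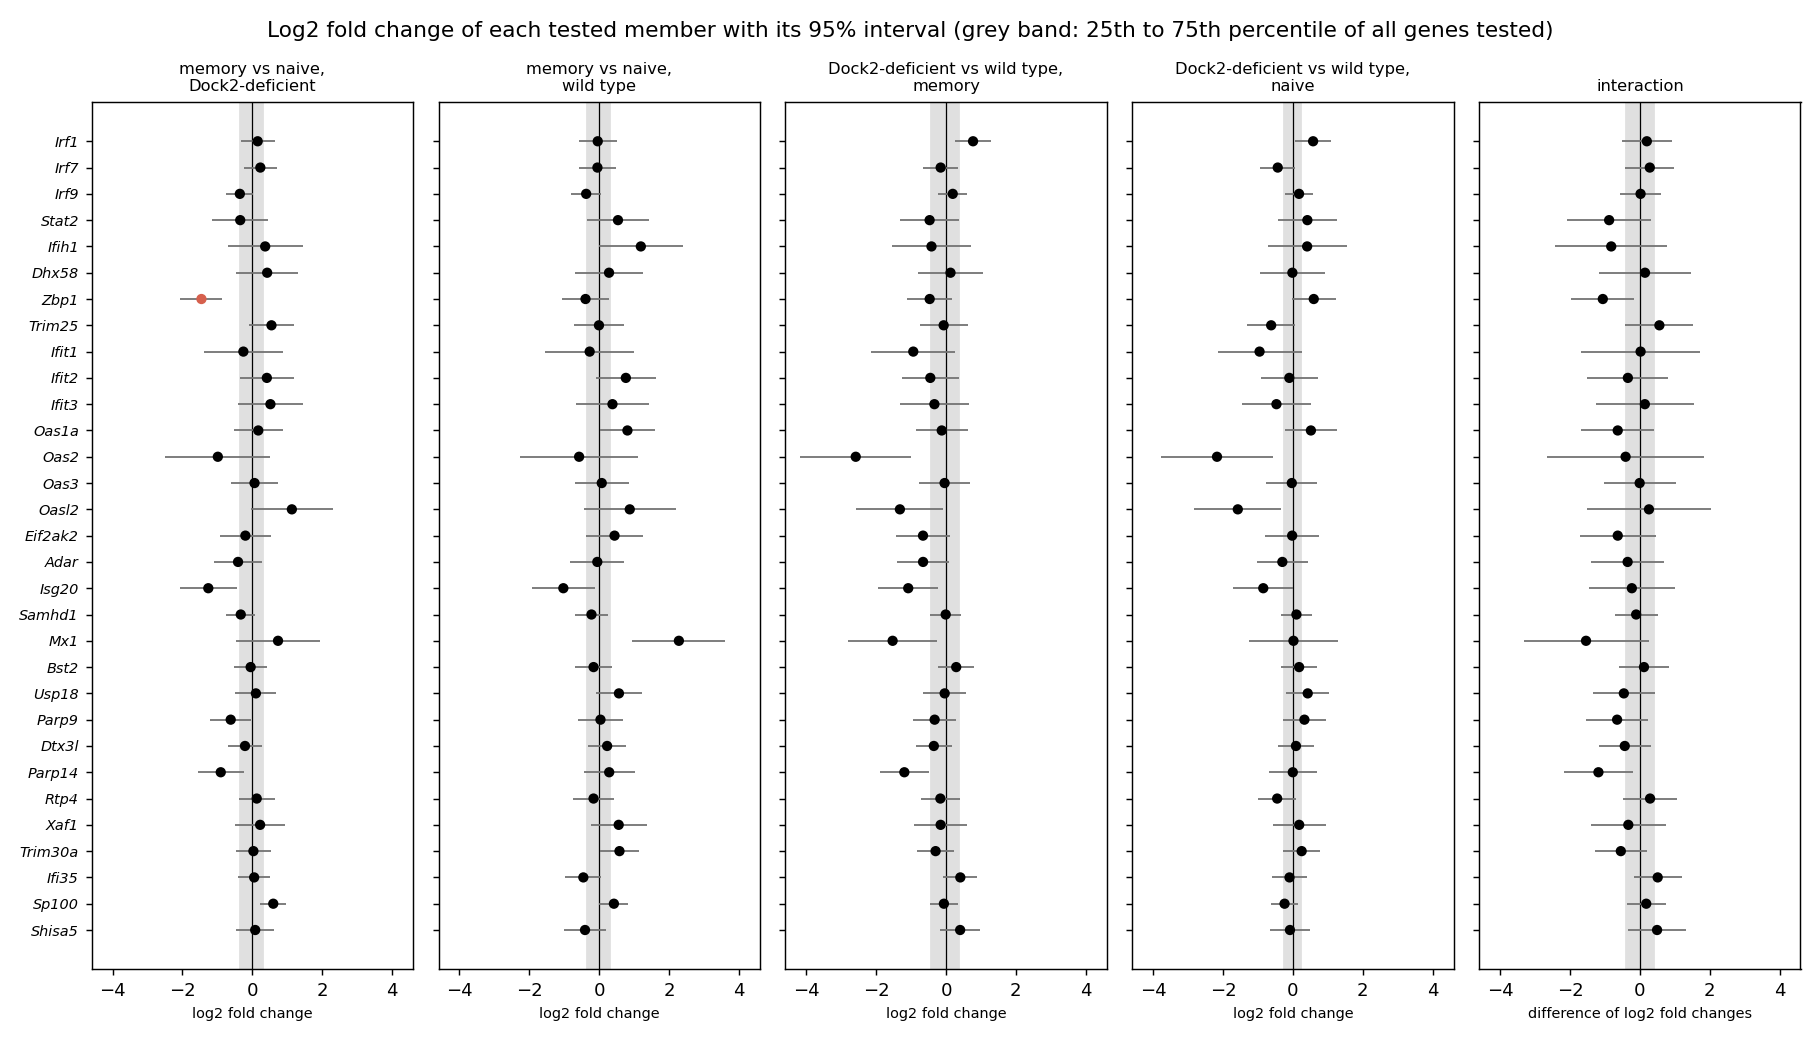
Log2 fold change of each tested gene (points, red where adjusted p is under the threshold of 0.05) with its 95% interval (lines) in the 5 comparisons; for the interaction the axis is the Dock2-deficient minus the wild-type memory effect. Zbp1 in Dock2-deficient memory against naive cells is the single red point, and in memory cells of Dock2-deficient against wild-type mice 25 of 31 points lie left of 0.

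The memory effect itself was compared between the mice as an interaction, the Dock2-deficient minus the wild-type log2 fold change. No member was called, against 3 of 9437 genes (0.0318%), and 2 of 31 (6.45%) had an unadjusted p under 0.05, against 5.21%. These were Zbp1 (-1.06 ± 0.43; adjusted p = 0.819, limma) and Parp14 (-1.19 ± 0.47; adjusted p = 0.819). Zbp1 thus passed in Dock2-deficient and not in wild-type mice, but its memory effect was not shown to differ between them. Parp14 was at 44.4, 75.3, 43.0, 72.4 and 31.8 in Dock2-deficient memory libraries, against 126, 148, 104, 66.6 and 60.7 in Dock2-deficient naive libraries, and at 96.2, 146, 95.4 and 141 in wild-type memory libraries, against 174, 107, 61.5 and 73.4 in wild-type naive libraries. The wild-type memory values lay inside the wild-type naive range, and the Dock2-deficient groups overlapped in part. Intervals were wide, reaching a median of 0.98 to either side, and lay within 2-fold for 6 of the 31 members.

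Between memory cells of Dock2-deficient and wild-type mice, no member passed the test, although most estimates lay below 0. Of the 31, 25 had a negative and 6 a positive log2 fold change, with a median of -0.30, against 0.01 for all genes. Relative to the median of all genes the members lay at -0.31 as deposited, at -0.33 after scaling to totals without Rn18s-rs5 and at -0.28 after quantile normalization. The median rested in part on single libraries: it was -0.15 without wild-type memory library 1, -0.16 without wild-type memory library 4, and -0.14 with both libraries that stood apart removed. None was called, against 5 of 9437 genes (0.053%), 6 of 31 (19.4%) had an unadjusted p under 0.05, against 16.4%, and 4 (12.9%) had groups that did not overlap, against 4.44%. With a term for sex, where no member was called, 7 of 31 (22.6%) had an unadjusted p under 0.05, against 6.34% of all genes. That term was estimated within the Dock2-deficient groups alone, through replicate 1, the only Xist-positive library of each. Dock2-deficient memory library 1 also had the lowest depth (2215987 expected reads) and the lowest average over the members (-0.39). This fit therefore cannot separate sex from these single libraries. The shares of unadjusted p and of non-overlap also moved with single libraries. Without Dock2-deficient memory library 1, the members' share at an unadjusted p under 0.05 fell below that of all genes (16.1%, against 17.98%). The 2 shares were close without wild-type memory library 1 (16.1%, against 15.8%) and without Dock2-deficient memory library 4 (22.6%, against 22.1%). They were also close with a pseudocount of 0.5 (16.1%, against 16.2%). In the other refits with 1 library removed the members' share was higher. Genes with an unadjusted p under 0.05 were 5 of 31 (16.1%), against 9.22%, without Dock2-deficient memory library 5, 8 of 31 (25.8%), against 10.6%, without wild-type memory library 4, and 4 of 31 (12.9%), against 6.07%, without both. Groups that did not overlap were 6 of 31 (19.4%), against 8.40%, without both. Negative estimates numbered 19 of 31 without wild-type memory library 4 and 20 without both.

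The 4 signalling members split, with 2 positive and 2 negative estimates. Irf1, induced by interferon gamma and a driver of antigen presentation genes, was at 220.1, 308.7, 383, 258 and 563 in Dock2-deficient memory libraries, against 216, 205, 199.8 and 152 in wild-type memory libraries. The lowest Dock2-deficient value lay just above the highest wild-type value, and library 5 was highest (0.77 ± 0.25, adjusted p = 0.236, limma). In naive cells it was at 264, 213, 278, 391 and 359 in Dock2-deficient libraries, against 166, 175, 212 and 242 in wild-type libraries, which overlapped (0.58 ± 0.25, adjusted p = 0.729, limma). Stat2 was at 33.7, 43.2, 44.7, 28.9 and 30.1 in Dock2-deficient memory libraries, against 29.0, 57.9, 21.9 and 162 in wild-type memory libraries, where library 4 lay far above the rest. The 11 tested RNA-directed and nucleotide enzymes all had negative estimates in memory cells, with a median of -0.66, although 2 of them, Oas3 (-0.04) and Samhd1 (-0.01), turned positive under another scaling, and Samhd1 was at 0.20 without the 2 libraries that stood apart. Oas2 makes the oligoadenylates that activate RNase L. It was at 1.78, 11.1, 10.3, 9.36 and 0 in Dock2-deficient memory libraries, against 36.5, 33.4, 16.8 and 41.96 in wild-type memory libraries. Every Dock2-deficient value was below every wild-type value, but the difference missed the threshold (-2.59 ± 0.77, adjusted p = 0.228, limma). Its neighbour Oas3 showed no such gap, at 149, 73.7, 89.3, 65.7 and 68.0 in Dock2-deficient memory libraries, against 101, 115, 86.0 and 58.6 in wild-type memory libraries.

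Oasl2 values of the memory libraries, given above, did not overlap between the genotypes either (-1.32 ± 0.60, adjusted p = 0.293, limma). Ifit1, which binds uncapped viral RNA, was at 1.78, 7.41, 18.9, 12.0 and 13.2 in Dock2-deficient memory libraries, against 33.4, 20.7, 18.3 and 7.29 in wild-type memory libraries, overlapping (-0.94 ± 0.58, adjusted p = 0.402, limma). Samhd1, which hydrolyses the nucleotides that retroviruses need, was the most abundant enzyme by mean value, at 137, 215, 202, 146 and 161 in Dock2-deficient memory libraries, against 149.6, 117, 192 and 253 in wild-type memory libraries. Its difference of -0.01 had a 95% interval within 2-fold. Bst2, which encodes the tether that holds budding virus at the cell surface, was at 49.7, 56.8, 68.7, 30.6 and 60.1 in Dock2-deficient memory libraries, against 48.9, 43.4, 41.3 and 34.96 in wild-type memory libraries (0.29 ± 0.24, adjusted p = 0.545, limma). Mx1 overlapped through Dock2-deficient library 4 (-1.53 ± 0.61, adjusted p = 0.261, limma). Isg20 overlapped through Dock2-deficient library 2 (-1.08 ± 0.42, adjusted p = 0.259). With a term for sex, estimated through replicate 1 of the Dock2-deficient groups, Oasl2 was at -0.34 and Ifit1 at -2.28. Without the 2 libraries that stood apart, Irf1 was at 0.47, Stat2 at 0.15, Ifit1 at -1.47 and Bst2 at 0.15. No member was called in either setting.

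The ADP-ribosylation genes Parp14, Parp9 and Dtx3l lie side by side on chromosome 16. Parp14 was lower in every Dock2-deficient memory library than in any wild-type memory library (-1.20 ± 0.33), which did not pass (limma, adjusted p = 0.228). Dtx3l, a ubiquitin ligase that pairs with PARP9, was at 116, 147, 101, 132 and 97.8 in Dock2-deficient memory libraries, against 96.6, 153, 137 and 248 in wild-type memory libraries, where library 4 was highest (-0.35 ± 0.25, adjusted p = 0.478, limma). Without that library its difference was -0.11. Parp9 (35938470 to 35972605, plus strand, mm10) and Dtx3l (35926511 to 35939151, minus strand) overlap, and the library method does not mark strand, so reads in the shared stretch cannot be told apart. Trim25, a ubiquitin ligase acting on the RNA sensor RIG-I, was at 65.7, 64.3, 46.4, 117 and 37.2 in Dock2-deficient memory libraries, against 77.1, 61.1, 74.8 and 48.1 in wild-type memory libraries, with overlap. Values of the Oas, Ifit and Trim30 families are uncertain where RSEM shares reads between similar copies.

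**Figure D5:**
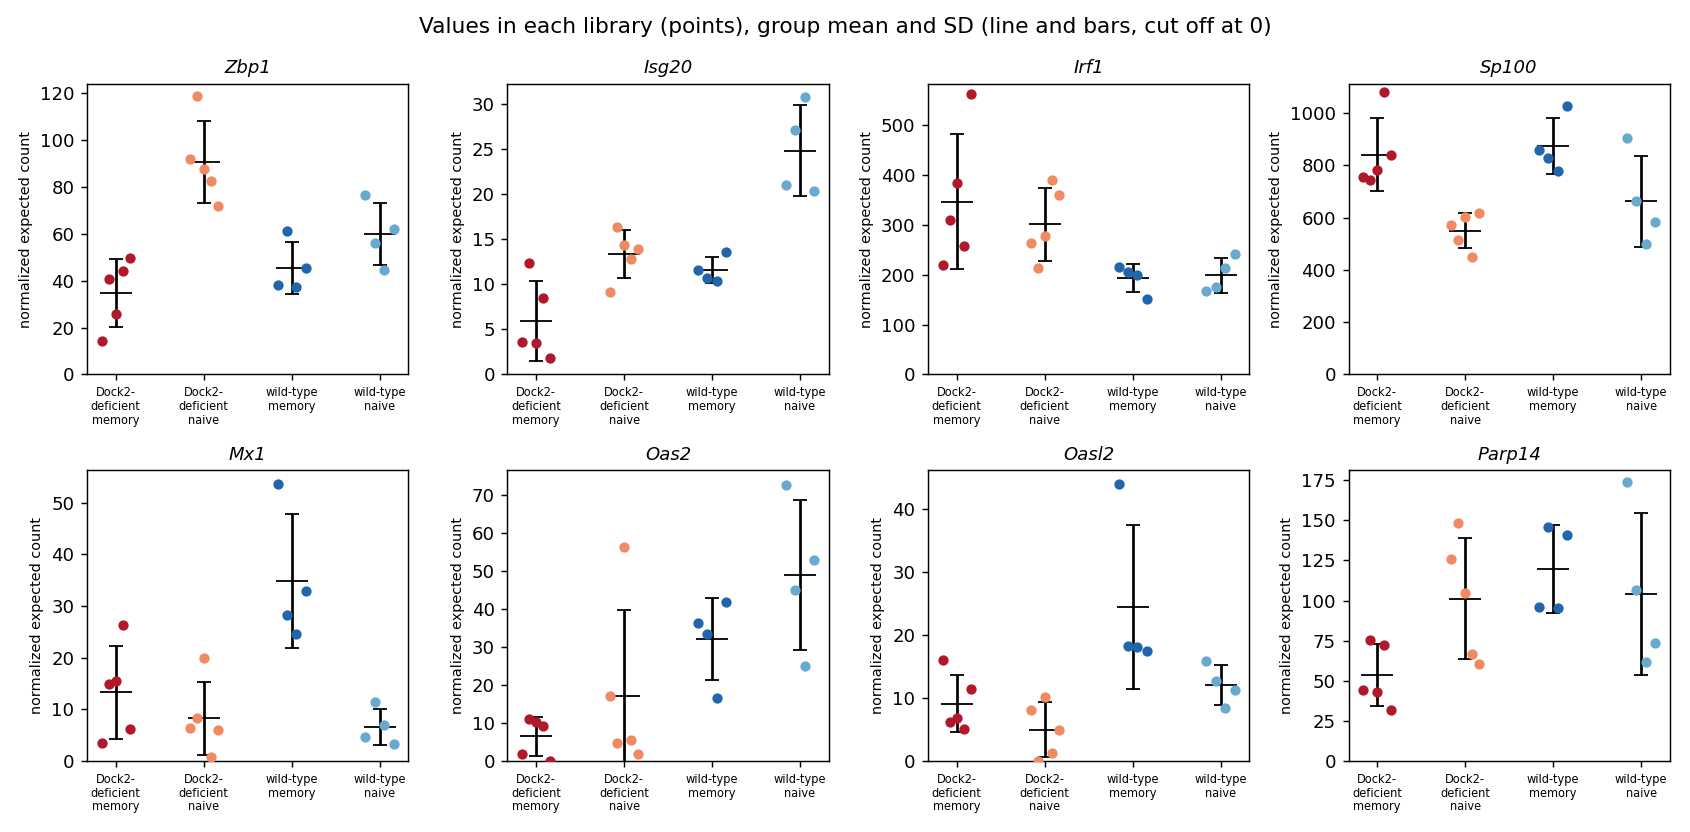
Normalized expected count of 8 of the members in each library (points), with group means and SD. Zbp1 is lower in memory than in naive cells of Dock2-deficient mice, and the other gaps (Isg20 in naive cells, Irf1, Oas2, Oasl2 and Parp14 in memory cells, Sp100 and Mx1 between sorts) did not pass the test.

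Between naive cells of Dock2-deficient and wild-type mice, the member with the estimate farthest from 0 was Oas2, and no member passed the test. There were 0 of 31 called, against 13 of 9437 genes (0.138%), 3 of 31 (9.68%) had an unadjusted p under 0.05, against 6.1%, and 1 (3.23%) had groups that did not overlap, against 2.71%. The median log2 fold change was -0.02, with 14 positive and 17 negative, and that of all genes 0.00. Oas2 was at 17.3, 4.76, 56.3, 5.61 and 1.99 in Dock2-deficient naive libraries, against 72.7, 45.2, 25.2 and 53.1 in wild-type naive libraries. Dock2-deficient library 3 reached into the wild-type range, and the difference of -2.18 ± 0.77 did not pass (limma, adjusted p = 0.565). Oasl2 overlapped through Dock2-deficient library 3 (-1.58 ± 0.60, adjusted p = 0.645, limma). Ifit1 was at 5.27, 4.78, 9.32, 31.6 and 15.9 in Dock2-deficient naive libraries, against 19.5, 28.6, 15.4 and 24.5 in wild-type naive libraries (-0.96 ± 0.58, adjusted p = 0.910, limma), overlapping through Dock2-deficient libraries 4 and 5. Isg20 was the member without overlap, every Dock2-deficient naive value given above lying below every wild-type naive value (-0.85 ± 0.42, adjusted p = 0.827, limma). With a term for sex, estimated through replicate 1 of the Dock2-deficient groups, Oasl2 was at -0.60, Ifit1 at -2.30 and Irf1 at 0.21. Of the 31 members, 14, with Oas2, Oasl2, Isg20 and Ifit1 among them, had negative estimates in memory and in naive cells, 11 were negative in memory and positive in naive cells, 3 were the other way round and 3 were positive in both. Sex largely goes with genotype in both comparisons.

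The other 12 tested members were called in none of the 5 comparisons. Among signalling genes, Irf7, which amplifies type I interferon production, ranged from 44.1 to 95.3 over the 18 libraries. Dhx58, which encodes the RNA sensor LGP2, ranged from 4.55 to 38.0. Among the RNA-directed enzymes and binders, Ifit2, which encodes a translation inhibitor, ranged from 12.7 to 86.5 and Ifit3 from 8.64 to 58.8. Both lie beside Ifit1 on chromosome 19. Oas1a ranged from 7.78 to 41.5, the translation-blocking kinase gene Eif2ak2 (PKR) from 10.2 to 39.6, and Adar, which edits double-stranded RNA, from 67.02 to 355. Usp18, which removes ISG15 from proteins and dampens the type I receptor, ranged from 18.2 to 59.4. Of the less understood genes, Rtp4 ranged from 27.9 to 68.7, Xaf1, linked to apoptosis, from 18.8 to 66.6, Trim30a from 86.1 to 230.3 and Ifi35 from 42.8 to 131. Wild-type memory library 4 held the highest value of 6 of the 31 members and wild-type memory library 1 that of 5, while Dock2-deficient memory library 1 held the lowest of 5.

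Of the pathway around these genes, 76 further genes beside the interferons were listed, 75 were in the table and 65 were tested. Interferons themselves were nearly absent. Of 21 interferon genes, 17 were at 0 in every library, and Ifna13, Ifna14 and Ifnz reached at most 2.79. Ifng, the gene of interferon gamma, was at 23.1, 30.9, 18.9, 0.851 and 1.77 in Dock2-deficient memory libraries, against 0, 2.04, 3.07, 0 and 1.99 in Dock2-deficient naive libraries (2.21 ± 0.78, adjusted p = 0.176, limma). In wild-type mice it was at 28.2, 15.7, 12.9 and 12.2 in memory libraries, against 0, 0, 1.40 and 1.13 in naive libraries, a rise of 3.53 ± 0.87 (limma, adjusted p = 0.0278). This call was lost in 6 of 18 refits with 1 library removed (adjusted p up to 0.0950) and without the filter (0.0666).

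Of the 7 receptor genes and kinase genes listed, all tested, 2 were called between sorts in each genotype, 1 higher and 1 lower in memory cells, and none between genotypes. Ifngr1, the ligand-binding chain of the interferon gamma receptor, was at 438, 536, 603, 523 and 795 in Dock2-deficient memory libraries, against 152, 182, 152, 202 and 189 in Dock2-deficient naive libraries (1.70 ± 0.17, adjusted p = 1.1e-06, limma), and rose by 1.54 in wild-type memory cells (adjusted p = 1.8e-05). Ifngr2, its signalling partner, was at 0, 3.70, 0, 0 and 2.65 in Dock2-deficient memory libraries, against 26.7, 27.9, 30.7, 49.7 and 43.8 in Dock2-deficient naive libraries (-4.34 ± 0.50, adjusted p = 9.3e-06, limma), and was also lower in wild-type memory cells (-3.83, adjusted p = 1.8e-04).

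Ifnar1 and Ifnar2, the type I interferon receptor chains, and the kinase genes Jak1, Jak2 and Tyk2 were not called in any of the 5 comparisons. Jak1 was at 1077, 1208, 1353, 1448 and 1368 in Dock2-deficient memory libraries, against 901, 1166, 946, 774 and 930.0 in Dock2-deficient naive libraries (0.46 ± 0.15, adjusted p = 0.141, limma). Ifnar1 ranged from 112 to 247 and Ifnar2 from 48.2 to 180.5 over the 18 libraries. Of the 6 feedback genes, Ptpn2, a phosphatase that acts on JAK1, was called higher in Dock2-deficient memory than naive cells (0.98 ± 0.26, adjusted p = 0.0473, limma), a call lost in 12 of 18 refits with 1 library removed (adjusted p up to 0.146) and in 6 other settings. Socs3, an inhibitor of cytokine signalling, was at 70.0, 44.2, 88.1, 75.4 and 113 in Dock2-deficient naive libraries, against 33.6, 21.7, 44.7 and 33.9 in wild-type naive libraries (1.18 ± 0.32, adjusted p = 0.266, limma). None of the 11 tested sensors and adaptors upstream of interferon was called.

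Among 41 tested further interferon-induced genes, 1 was called between sorts in Dock2-deficient mice and 2 in wild-type mice, all higher in memory cells, and none between genotypes. Ms4a4c, a membrane protein gene, was at 225, 357, 829.7, 300.5 and 952 in Dock2-deficient memory libraries, against 82.8, 175, 126, 179 and 162 in Dock2-deficient naive libraries (1.69 ± 0.34, adjusted p = 0.00505, limma), and rose by 2.09 in wild-type memory cells (adjusted p = 0.00215). Apobec3, a cytidine deaminase that restricts retroviruses, was at 327, 249, 336 and 419.5 in wild-type memory libraries, against 183, 145, 190.2 and 192 in wild-type naive libraries (0.89 ± 0.19, adjusted p = 0.0104, limma), a call lost without wild-type naive library 2 or wild-type memory library 4 (adjusted p up to 0.0536). Leaving out the interferons and so Ifng, 3 pathway genes were called higher and 1 lower in memory cells of each genotype (4 of 65 each, against 2.82% of all genes in Dock2-deficient and 2.52% in wild-type mice).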

How the data were processed

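Per the labels' protocols, total RNA (Qiagen RNAeasy kit) was turned into Smartseq2 libraries, which carry no strand information. The submitters' processing notes name bcl2fastq, FastQC, RSEM and the mm10 build, and give no versions, filters or annotation. The deposited values are a normalized signal: RSEM expected counts that the authors scaled between libraries. Read back from the grid of 0.01 reads in each library, 59.5% to 69.3% of the values above 0 were whole reads within 0.005, so count models were not run. All columns belonged to the series. Replicates of a group were not alike within counting noise (chi-square per degree of freedom 4.68 to 167.2).

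Groups came from the sample titles. Genes had to reach 10 in at least 4 libraries, and log2(value + 1), on which fold changes of low genes are understated, was fitted with limma 3.58.1 (R 4.3.3; variance trend, 4 group means over all 18 libraries, 14 residual and 6.43 prior degrees of freedom, two-sided tests). P-values were adjusted by Benjamini-Hochberg over all 9437 genes, with a threshold of 0.05. The fit was also run on simulated data, with changes placed only in the more abundant genes. That run therefore does not speak for the members of low value. The members and all lists were chosen with earlier results of these data known. Values in every library are given for members called in a comparison, for the 3 with the largest absolute log2 fold change in each, and for the member with the highest mean value of each role group; Irf9, Oas3, Sp100 and Stat2, and Socs3 among pathway genes, were added after their values were seen. Called pathway genes and the receptor and kinase genes are named; 2 listed items are not reported here. Gene positions and exon lengths came from GENCODE M21 (mm10). Pandas 2.3.3, scipy 1.17.1 and matplotlib 3.10.9 ran in Python 3.11.15. Alternatives were other pseudocounts (0.5 and 5), no filter, scaling to totals without Rn18s-rs5, quantile normalization, the compared libraries alone, a replicate block, a term for sex, and leaving out libraries.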

Additional observations from a re-analysis of the deposited data

Results flagged for a closer look

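Within groups of 4 or 5 libraries, the highest or lowest value of a gene was compared with its nearest neighbour by Dixon's ratio at the 95% level. Of 144 sets of values tested (140 of a gene in a group and 4 of the average over the tested members), 12 were past the critical value, and chance alone gives about 1 in 20.

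In Dock2-deficient memory libraries, Ifit2 was 61.3 in library 4, with the next value at 35.4. Oas3 was 149 in library 1, with the next at 89.3. Ifi44 was 3.70 in library 2, with the next at 0.851. Sp100 was 1081 in library 4, with the next at 841, and Trim30a was lowest in the same library at 108, with the next at 143.

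In Dock2-deficient naive libraries, Oas3 was 204 in library 2, with the next value at 74.9. Oas2 was 56.3 in library 3, with the next at 17.3. Rtp4 was lowest in library 5 at 27.9, with the next at 40.9.

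In wild-type memory libraries, Oasl2 was 44.0 in library 1, with the next value at 18.3, and Ifi44 was 2.50 there and 0 in the other 3. Parp9 was 119.5 in library 4, with the next at 60.6, and Ifit3 was lowest in the same library at 17.9, with the next at 49.8. No member was past the critical value in wild-type naive libraries.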

How the results depend on the processing

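Of 1047 alternative values, 969 kept their direction and their side of the threshold or stayed near the value reported, and no value past the threshold as deposited changed sign. These values cover counts, medians, called genes and the 3 members farthest from 0 in each comparison. Among all 31 tested members, direction differed between scalings for 10 and 1 between sorts in Dock2-deficient and wild-type mice. It differed for 7 and 3 between genotypes in memory and naive cells, and for 9 in the interaction. Shisa5 between sorts in Dock2-deficient mice was at 0.09 as deposited, not called, and at -0.49, called, after quantile normalization. Leaving out 1 library at a time gave 203 to 321 and 185 to 259 genes called between sorts in Dock2-deficient and wild-type mice, 3 to 13 and 9 to 19 between genotypes in memory and naive cells, and 0 to 2 for the interaction. Members called were 1 to 2 (Isg20 or Sp100 beside Zbp1) and 0 to 1 (Mx1) between sorts, and 0 in the other comparisons. The member medians ran from -0.03 to 0.16, 0.057 to 0.21, -0.33 to -0.15, -0.11 to 0.09 and -0.29 to -0.090 in the same order. Scaling to totals without Rn18s-rs5 gave member medians of -0.25 between sorts in Dock2-deficient mice, -0.55 between genotypes in memory cells and -0.43 for the interaction, where all genes moved to -0.32, -0.22 and -0.25; calls between sorts in Dock2-deficient mice were then 98 higher and 167 lower, against 167 and 99 as deposited. With library 4 of the wild-type memory and library 5 of the Dock2-deficient memory group removed together, the medians were -0.14 between genotypes in memory cells and -0.067 for the interaction, with 0 genes called for the interaction. Members called were 2 between sorts in Dock2-deficient mice after quantile normalization (Shisa5) and 1 in wild-type mice in 3 settings (Mx1). Genes called between genotypes in memory cells were 12 with a pseudocount of 5, 10 without the filter, 3 from the compared libraries alone and 0 with a term for sex, and in naive cells 8 from the compared libraries and 3 with the term. The interaction had 0 without the filter. The causes were not tested.

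Same-numbered libraries showed no steady shared deviation (correlations from -0.253 to 0.303), which cannot decide whether the numbers pair samples. The Xist-positive library carried the same number in both Dock2-deficient groups. The main fit took no account of a pairing. With a mean for each genotype and replicate number, 218 and 196 genes were called between sorts in Dock2-deficient and wild-type mice. The interaction then had 0. With replicate number as a block across the genotypes, 7 and 19 genes were called between genotypes in memory and naive cells. Members called did not change in any of these fits. Depth limits the low genes: values under 10 are a few reads.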
